A study of Mus musculus with 12 samples.

Results

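Orphan G protein-coupled receptors with Gpr symbols were followed in the hippocampus of mice after pilocarpine-induced seizures. The members were all probe sets whose platform annotation gave 1 gene symbol made of Gpr and digits alone, with the probe set of the highest mean kept for a gene. This gave 65 genes with 1 probe set each, of 23410 probe sets with a gene. Genes were chosen by symbol, but the family was taken up because the Gpr75 value was lower in status epilepticus (SE) than in controls. It was thus selected on the heterozygous SE and control arrays, and the values of the Gpr genes on these arrays are given as a description without a test.

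The 12 hippocampal samples, 3 in each of 4 groups, came from 12 mice and were each hybridised to a Mouse Gene 1.0 ST array. The C57/Bl6 mice, males and females 7 to 10 weeks old, all carried CaMKCreERT2 and had received tamoxifen. CaMKCreERT2 is a tamoxifen-inducible Cre driven by the Camk2a promoter, so that Srf, the gene of serum response factor, is deleted in excitatory neurons of the forebrain and not in other cells of the tissue. Heterozygous mice (Srf+/-; CaMKCreERT2), called WT or control in the sample labels, had received Ringer solution (heterozygous controls) or 335 or 350 mg/kg pilocarpine, a muscarinic agonist, and were in SE for 40 min. Srf mutant mice (Srf-/-; CaMKCreERT2) had received Ringer solution (mutant controls) or pilocarpine at these doses. The pilocarpine-injected mutants had seizures but did not reach SE, and the time at which their tissue was taken is not stated. Mutants that did reach SE were not analysed here. Pilocarpine-injected mice had also received methyl scopolamine, which limits the action of pilocarpine outside the brain.

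Orphan receptors are membrane proteins of the G protein-coupled receptor superfamily for which no natural ligand was known when they were named. Most pass through the membrane as a bundle of helices and act on G proteins of the Gs, Gi, Gq or G12 class, which raise or lower cyclic AMP, release calcium or act on the actin cytoskeleton. Several are made mainly in neurons and signal without a ligand, others are found on glia, vessels or immune cells, and some proteins with a Gpr symbol sit in lysosomes or the Golgi apparatus and are not classical receptors.

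Srf was the check of the labels: its level was 9.57 ± 0.041 (log2, SD, n = 3) in heterozygous controls, 10.21 ± 0.054 in SE, 8.90 ± 0.089 in mutant controls and 8.88 ± 0.042 in mutants with pilocarpine, so that the highest mutant value was below the lowest heterozygous value. All 12 activity-regulated early genes of a list that includes Fos, Arc and Npas4 were called higher in SE (adjusted p under 0.05 from limma), beside 5.08% of all probe sets. In the mutants with pilocarpine all 12 were higher without overlap with the mutant controls. Of these, 11 were called, beside 0.871% of all probe sets. Medians of the arrays lay between 7.66 and 7.72. All 10 markers of granule and pyramidal neurons lay above the median of all probe sets. Their summed level (log2 of the sum of linear values) ran from 15.713 to 15.751 in heterozygous controls and 15.622 to 15.705 in SE. It ran from 15.695 to 15.735 in mutant controls and 15.674 to 15.745 in mutants with pilocarpine. Of these 10 markers 0 were called higher and 1 lower in SE, beside 5.08% and 6.93% of all probe sets. Their single differences in SE ran from -0.94 to 0.21 (log2). For 6 inhibitory neuron markers the sums were 13.642 to 13.65, 13.772 to 13.8, 13.723 to 13.812 and 13.81 to 13.843. In SE 1 of these 6 was called higher and 0 lower. The part of neuron content in the Gpr values was not tested. Xist was above 9 on 1, 0, 2 and 1 of the 3 arrays of heterozygous controls, SE, mutant controls and mutants with pilocarpine. The sexes were thus not balanced. Of the 9 X-linked Gpr genes 0 passed the test in the mutants with pilocarpine, beside 0.871% of all probe sets higher and 0.965% lower. Between the controls of both genotypes 0 passed, beside 0.0384% of all probe sets higher and 0.0812% lower. With shares this low, 0 of 9 says nothing of the part of sex. In bulk tissue, fewer cells of a type and less RNA per cell cannot be told apart.

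The probes of a gene set its brightness along with its RNA, so that levels are compared here between mice and not between genes. Of the 65 Gpr probe sets, 19 lay in the dimmest 30% of all probe sets, at a mean level below 6.10 (log2). The SD within groups had a median of 0.090 over the Gpr genes (0.076 over all probe sets) and ran from 0.027 for Gpr65 to 0.336 for Gpr182.

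**Figure D1:**
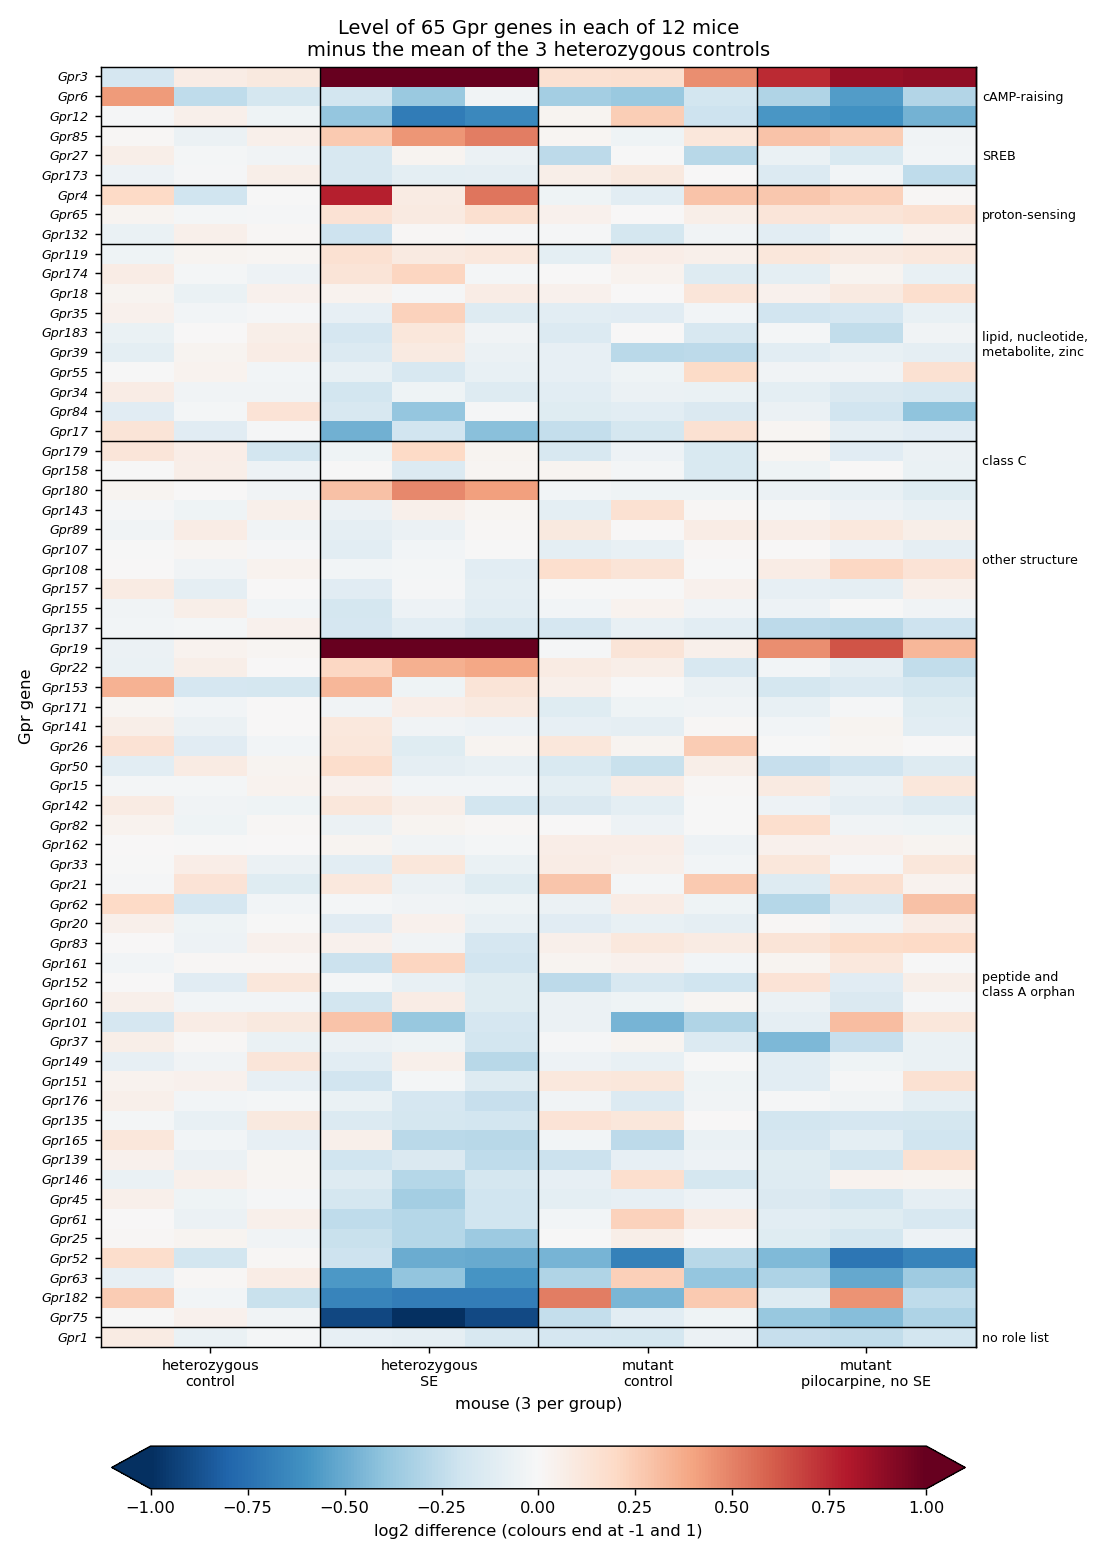
Level of each of 65 Gpr genes (rows) in each of 12 mice (columns, 3 per group), as the log2 difference from the mean of the 3 heterozygous controls, ordered by role and, within a role, by the difference in heterozygous SE. Red stands for higher and blue for lower values, with colours ending at -1 and 1. Gpr3 and Gpr19 are red in all 3 mice with SE and paler red in the 3 mutants with pilocarpine, Gpr75 is blue in all 3 mice with SE, and most other rows are pale throughout.

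Promoter windows of Gpr3, Gpr19, Gpr12 and Gpr75, the 4 genes on which the results turn, were read from RefSeq sequences of GRCm38.p6 and searched for motifs of seizure-activated transcription factors. A window is the 250 bases before 1 start of a gene, and a gene can have several. The Gpr3 window, at chr4:133212537-133212786 (minus strand), is shown 5′ to 3′ on the strand of the gene, since Gpr3 was higher with pilocarpine in both genotypes. The windows of the other 3 genes lie inside the span of their gene and are not shown. Capitals mark matches, on either strand, to the cyclic AMP response element (TGACGTCA), its core TGACG, which lies inside the full element, the AP-1 site (TGANTCA), the EGR site (GCGNGGGCG) or the CArG box, the element bound by SRF.
Gpr3: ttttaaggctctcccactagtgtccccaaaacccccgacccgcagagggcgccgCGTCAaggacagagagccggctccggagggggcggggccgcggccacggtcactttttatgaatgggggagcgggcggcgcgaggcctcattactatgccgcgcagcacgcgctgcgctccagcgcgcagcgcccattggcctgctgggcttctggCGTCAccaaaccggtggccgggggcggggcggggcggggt
The Gpr3 window held 2 TGACG cores, both on the opposite strand and so printed as CGTCA, in a sequence of 70.8% G and C. Of the 4 windows of Gpr19, the one of the most upstream start held 1 EGR site, and TGACG lay in at least 1 of the others. No match to any of these letters lay in the windows of Gpr12 or Gpr75. Of all 27025 genes with a promoter in the table, 19.8% held TGACG in at least 1 of their windows, 1.77% the full element, 7.82% the AP-1 site, 5.33% the EGR site and 1.62% the CArG box. Among the 49 Gpr genes in the table the counts were 14, 1, 3, 4 and 0. These matches are descriptions of the letters and say nothing of binding.

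SE in heterozygous mice was accompanied by higher Gpr19 and Gpr3 and by lower Gpr75, Gpr182, Gpr12 and Gpr63. Of these, Gpr182 varied most within groups and did not meet the limit given below. The largest differences among Gpr genes were upwards: Gpr19 was 3.61-fold and Gpr3 3.17-fold higher in SE, while Gpr75, the gene behind the choice of the group, was 1.95-fold lower. In the comparisons that were tested, a gene was called where limma gave an adjusted p under 0.05. On the heterozygous arrays the same limit only sorts the Gpr genes and is no test. With higher values 6 of 65 (9.23%) met it, beside 5.08% of all probe sets, and with lower values 8 (12.3%), beside 6.93% of all. Nothing is read from these shares, as the rule used this comparison. Of the 65 genes, 50 differed by less than 0.2 (log2) in either direction. The median difference was -0.05 (log2) over the Gpr genes and -0.03 over all probe sets. Without overlap between the 3 mice with SE and the 3 controls, 7 of 65 Gpr genes were higher, beside 2487 of 23410 probe sets (10.6%). In the other direction 19 of 65 were lower, beside 4638 of 23410 (19.8%).

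Gpr3, Gpr6 and Gpr12 encode a family of receptors that couple to Gs and raise cyclic AMP without an added ligand. Gpr3 stood at 8.38, 8.62 and 8.64 (log2) in the heterozygous controls and at 10.16, 10.16 and 10.31 in SE. In the mutants it stood at 8.70, 8.71 and 9.02 without and 9.29, 9.42 and 9.44 with pilocarpine. Every mouse with pilocarpine lay above every mouse without it, and every mouse with SE lay above every mutant with pilocarpine. The difference was 1.66 (log2, standard error 0.093, n = 3 mice per group) in heterozygous SE.

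Gpr12 moved the other way. Its level was 8.71, 8.78 and 8.68 in heterozygous controls and 8.34, 8.02 and 8.08 in SE, lower by 0.58 (standard error 0.103). Mutant controls stood at 8.75, 8.97 and 8.52 and mutants with pilocarpine at 8.14, 8.12 and 8.25. In both genotypes the lowest mouse without pilocarpine lay above the highest mouse with it. Gpr6, the third of the family, stood at 8.43, 7.75 and 7.83 in heterozygous controls and at 7.82, 7.63 and 7.97 in SE, and the groups overlapped. The first of these controls had the highest Gpr6 level of all 12 mice, and Gpr6 is known for its abundance in striatum. The summed level of 6 striatal markers (log2 of the sum of linear values) ran from 11.30 to 11.40 in heterozygous controls, 11.45 to 11.60 in SE, 11.21 to 11.46 in mutant controls and 11.28 to 11.68 in mutants with pilocarpine. In SE 1 of the 6 was called higher and 1 lower, and Drd2 was not above the median of all probe sets. The part of neighbouring tissue in the Gpr6 values was not tested.

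**Figure D2:**
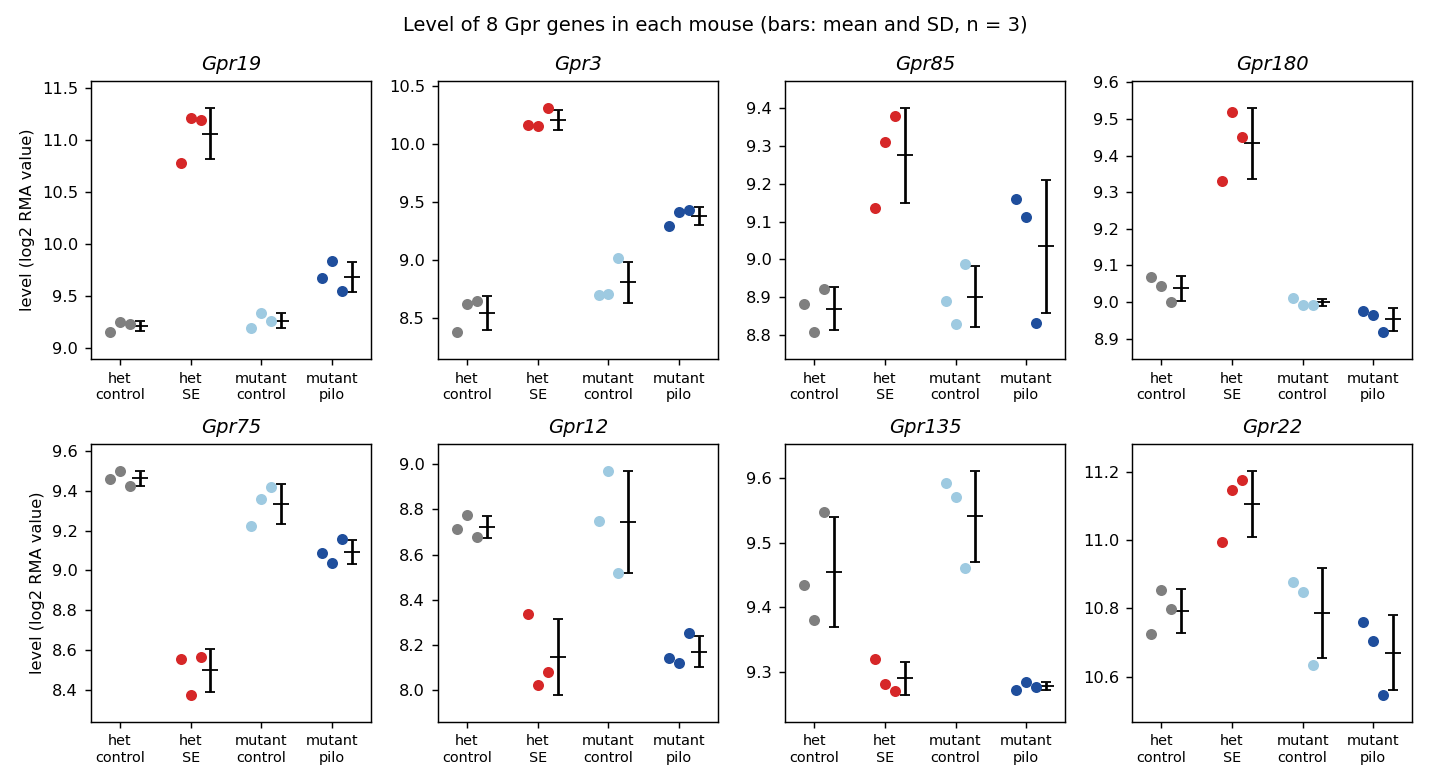
Level (log2 RMA value) of Gpr19, Gpr3, Gpr85, Gpr180, Gpr75, Gpr12, Gpr135 and Gpr22 in each mouse, by group; points are mice, horizontal ticks are group means and bars are SDs (n = 3). Axes differ between genes and do not start at 0. Gpr3 and Gpr12 of the mutants with pilocarpine lie apart from the mutant controls, while Gpr180 is high in heterozygous SE alone.

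The receptors of peptides and the class A orphans were the largest role, with 35 genes. Gpr19, a class A orphan of the brain, stood at 9.15, 9.25 and 9.23 (log2) in heterozygous controls and at 10.78, 11.21 and 11.20 in SE, higher by 1.85 (standard error 0.105). Mutant controls stood at 9.20, 9.34 and 9.26 and mutants with pilocarpine at 9.67, 9.84 and 9.54. The 4 groups thus fell into 3 separate bands, with the controls of both genotypes together at the bottom. Gpr22, an orphan of brain and heart, stood at 10.72, 10.85 and 10.80 in heterozygous controls and at 10.996, 11.15 and 11.18 in SE, higher by 0.31 (standard error 0.077). In the mutants it stood at 10.88, 10.85 and 10.63 without and 10.76, 10.70 and 10.55 with pilocarpine, where the groups overlapped.

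Gpr75, a class A receptor for which the chemokine CCL5 and the lipid 20-HETE have been proposed as ligands, stood at 9.46, 9.50 and 9.43 (log2) in heterozygous controls and at 8.55, 8.37 and 8.56 in SE. The difference of -0.97 (standard error 0.064) is the value that chose the group. The mutant controls stood at 9.22, 9.36 and 9.42 and the mutants with pilocarpine at 9.09, 9.04 and 9.16. The groups did not overlap within either genotype, and the mutants with pilocarpine lay between controls and mice with SE. Gpr63 and Gpr45 encode closely related orphans of the brain. Gpr63 stood at 8.71, 8.80 and 8.86 in heterozygous controls and at 8.22, 8.40 and 8.20 in SE, lower by 0.52 (standard error 0.130). Gpr45 was lower by 0.24 (standard error 0.051), from 8.45 ± 0.050 (SD, n = 3) to 8.21 ± 0.090. In the mutant controls Gpr63 was spread from 8.41 to 9.04, which spans the whole range of the heterozygous controls.

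Gpr25, an orphan described in T cells, was lower in SE by 0.29 (log2, standard error 0.049) and Gpr61, a Gs-coupled orphan of the brain, by 0.25 (standard error 0.060). Gpr61 stood at 6.90, 6.84 and 6.94 in heterozygous controls and at 6.64, 6.61 and 6.69 in SE. Neither of these genes overlapped between the heterozygous groups. Gpr182, a receptor gene of endothelial cells, stood at 7.12, 6.84 and 6.64 in heterozygous controls and at 6.21, 6.18 and 6.17 in SE, lower by 0.68 (standard error 0.225). Its mutant values ran from 6.41 to 7.38, so that the mice with SE lay below all others. The summed level of 7 endothelial and pericyte markers ran from 11.47 to 11.57 in heterozygous controls, 11.15 to 11.54 in SE, 11.53 to 11.58 in mutant controls and 11.36 to 11.55 in mutants with pilocarpine, with 2 of the 7 called lower in SE and Pecam1, Tek and Kdr not above the median of all probe sets. The part of vessel content in the values of Gpr182 was not tested.

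The SREB receptors (super-conserved receptors expressed in brain) are Gpr27, Gpr85 and Gpr173. Gpr85 stood at 8.88, 8.81 and 8.92 (log2) in heterozygous controls and at 9.14, 9.31 and 9.38 in SE, higher by 0.40 (standard error 0.086). The mutants with pilocarpine stood at 9.16, 9.11 and 8.83, of which the third lay among the mutant controls (8.89, 8.83 and 8.99). Gpr27 differed by -0.07 (standard error 0.074) in SE and Gpr173 by -0.12 (standard error 0.057), where the groups overlapped for Gpr27 alone.

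Of the proton-sensing receptors, which couple extracellular acidity to G proteins, Gpr65 was higher in SE by 0.13 (log2, standard error 0.039). It is known from lymphocytes and microglia, and stood at 5.11, 5.07 and 5.07 in heterozygous controls and at 5.23, 5.17 and 5.24 in SE. These levels lie within the dimmest 30% of probe sets. The summed level of 8 microglial markers ran from 11.88 to 12.04 in heterozygous controls, 11.877 to 11.995 in SE, 11.813 to 11.998 in mutant controls and 11.91 to 11.96 in mutants with pilocarpine, with 2 called lower in SE and Aif1 not above the median of all probe sets. The part of microglial content in the values of Gpr65 was not tested. Gpr4, the proton sensor of endothelium, stood at 6.99, 6.59 and 6.78 in heterozygous controls and at 7.56, 6.87 and 7.32 in SE. The groups overlapped, and the difference of 0.47 (standard error 0.161) was the third highest among the Gpr genes. Gpr132 differed by -0.07 (standard error 0.067).

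Receptors of lipids, nucleotides, metabolites or zinc numbered 10. Gpr17, a receptor of oligodendrocyte precursors, stood at 9.15, 8.91 and 9.01 (log2) in controls and at 8.55, 8.84 and 8.61 in SE, lower by 0.36 (standard error 0.103). In the mutants Gpr17 stood at 8.79, 8.85 and 9.18 without and 9.04, 8.94 and 8.91 with pilocarpine, and the groups overlapped. The summed level of 6 oligodendrocyte and precursor markers ran from 13.79 to 14.04 in heterozygous controls, 13.77 to 13.88 in SE, 13.90 to 13.93 in mutant controls and 13.50 to 13.86 in mutants with pilocarpine, with 1 of 6 called higher in SE. The part of these cells in the values of Gpr17 was not tested. Gpr84, a receptor of medium-chain fatty acids on myeloid cells, differed by -0.19 (standard error 0.101), Gpr34, the lysophosphatidylserine receptor of microglia, by -0.12 (standard error 0.049) and Gpr119, a lipid amide receptor of gut and pancreas, by 0.12 (standard error 0.049). The groups overlapped for Gpr84.

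A further 8 genes were grouped as other membrane proteins with a Gpr symbol. The group is mixed, as it holds Gpr157, which is described as a receptor. Gpr180, named as an intimal thickness-related receptor, stood at 9.067, 9.045 and 9.001 (log2) in heterozygous controls and at 9.33, 9.52 and 9.45 in SE, higher by 0.40 (standard error 0.049). In the mutants it stood at 9.01, 8.99 and 8.99 without and 8.98, 8.97 and 8.92 with pilocarpine. The 9 mice without SE thus lay within 8.92 to 9.07, below all mice with SE. Gpr137, a protein of the lysosomal membrane, was lower by 0.15 (standard error 0.043), from 10.76 ± 0.039 (SD, n = 3) to 10.61 ± 0.034. Gpr155, a lysosomal cholesterol sensor, differed by -0.11 (standard error 0.045), Gpr157, a receptor of neuronal progenitors, by -0.07 (standard error 0.055), Gpr89, a Golgi pH regulator, by -0.05 (standard error 0.048) and Gpr107, a Golgi protein, by -0.05 (standard error 0.046). Of these 4, the groups of Gpr155 alone did not overlap.

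The class C receptors were Gpr158 and Gpr179. Gpr158, which is abundant in hippocampus, responds to glycine and binds the G protein regulator RGS7, differed by -0.04 (log2, standard error 0.058), and Gpr179, known from retinal bipolar cells, by 0.06 (standard error 0.082). The 10 brightest probe sets of the family also included Gpr162, Gpr37 and Gpr26. Gpr162, an orphan of the brain, stood between 11.37 and 11.49 in all 12 mice and differed by -0.01 (standard error 0.042) in SE. Gpr37, known from oligodendrocytes and as a substrate of Parkin, differed by -0.10 (standard error 0.084) and Gpr26, a constitutively active orphan of the brain, by 0.01 (standard error 0.078).

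**Figure D3:**
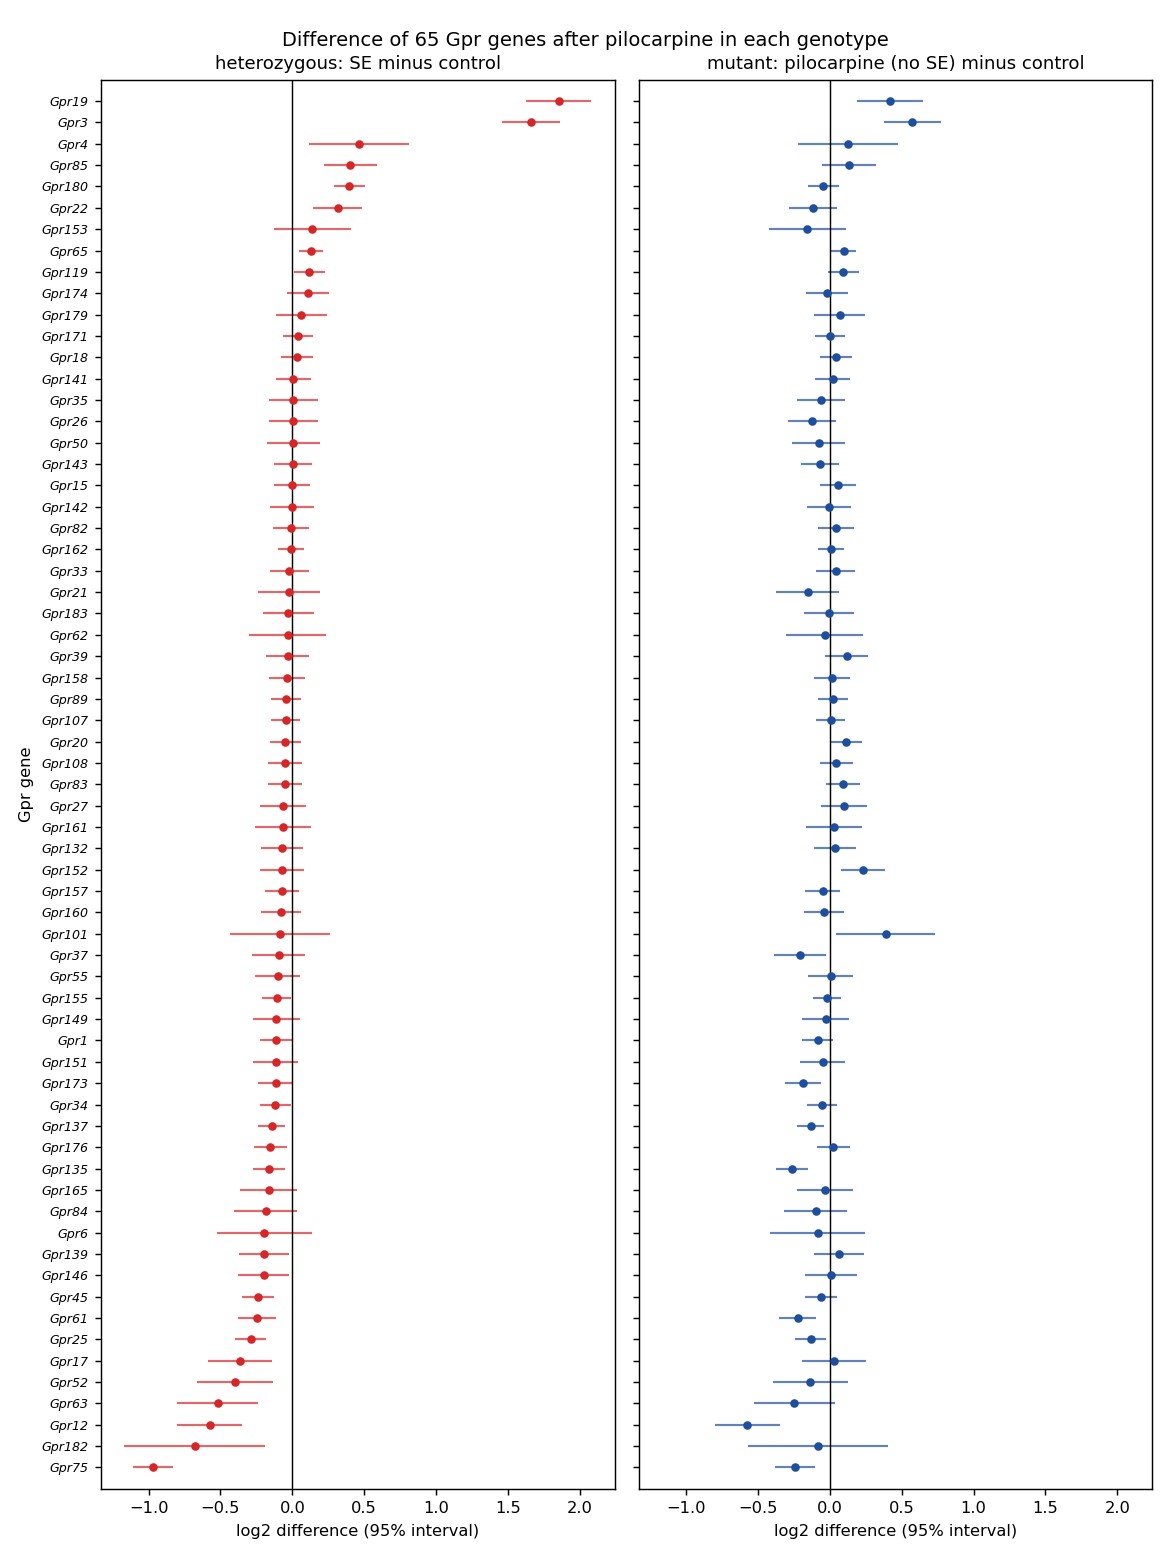
Log2 difference of 65 Gpr genes with pilocarpine against control, in heterozygous mice with SE (left) and in Srf mutants without SE (right), ordered by the left panel. Points are estimates from limma and lines are 95% intervals (n = 3 mice per group). The left panel shows the arrays that chose the group, so that its intervals are a description and no test. Gpr19 and Gpr3 lead on the left at 1.85 and 1.66 and are smaller on the right at 0.42 and 0.57, and Gpr12 is at -0.58 in both.

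The mutants with pilocarpine and without SE were compared with mutant controls, on 6 arrays that the choice of the group did not use. Gpr3 rose and Gpr12 and Gpr135 fell; no other Gpr gene passed the test. Thus 1 of 65 Gpr genes was called higher (1.54%, beside 0.871% of all probe sets) and 2 lower (3.08%, beside 0.965% of all). The median difference was -0.01 (log2) over the Gpr genes and 0.00 over all probe sets. Gpr3 rose by 0.57 (log2, standard error 0.093, adjusted p = 0.00856 from limma, n = 3 per group), with a 95% interval of 0.37 to 0.78, and was 1.49-fold higher. Gpr12 fell by 0.58 (log2, standard error 0.103, adjusted p = 0.016 from limma), with an interval of -0.80 to -0.35, which is 1.49-fold lower. The mice behind these values, given above, did not overlap for either gene.

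Gpr135, a class A orphan about which little is known, stood at 9.59, 9.57 and 9.46 (log2) in mutant controls and at 9.27, 9.28 and 9.28 in mutants with pilocarpine. It fell by 0.26 (log2, standard error 0.051, adjusted p = 0.0226 from limma), with an interval of -0.37 to -0.15. In the heterozygous mice it stood at 9.43, 9.38 and 9.55 without and 9.32, 9.28 and 9.27 with SE, a difference of -0.16 (standard error 0.051), and the groups did not overlap.

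The calls of Gpr12 and Gpr135 in the mutants depended on single mice. Without mutant control 2, Gpr12 had an adjusted p of 0.051, and without mutant 1 or 2 with pilocarpine of 0.0662 and 0.0669 (limma). Gpr135 lost its call when any of 5 mutant mice was left out, at adjusted p of 0.0543 to 0.0851 from limma. In a fit of the mutant arrays alone, with fewer arrays to estimate the spread, the adjusted p was 0.0636 for Gpr12 and 0.0779 for Gpr135 (limma). Gpr3 kept its call under all 22 alternatives.

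Gpr19 was higher in the mutants with pilocarpine by 0.42 (log2, interval 0.19 to 0.65) and did not pass the test (adjusted p = 0.0679 from limma), although every mouse with pilocarpine lay above every mutant control. Gpr75 was at -0.24 (interval -0.38 to -0.10, adjusted p = 0.0808 from limma) and Gpr61 at -0.23 (interval -0.36 to -0.09, adjusted p = 0.0831 from limma), also without overlap. Gpr101, a Gs-coupled orphan of the hypothalamus, was at 0.39 with overlapping groups (adjusted p = 0.275 from limma), since the mutant controls ran from 7.00 to 7.41 and the mutants with pilocarpine from 7.38 to 7.78. For these genes the intervals leave 0 out and the adjustment over 23410 probe sets decides the call. Gpr180 was at -0.05 (interval -0.15 to 0.06), Gpr22 at -0.12 (interval -0.28 to 0.05) and Gpr85 at 0.13 (interval -0.05 to 0.32), and none of these was called. In all, 7 of 65 Gpr genes were higher without overlap, beside 1648 of 23410 probe sets (7.04%). Lower without overlap were 11 of 65, beside 2659 of 23410 (11.4%). At an unadjusted p under 0.05, 6 of 65 were higher, beside 1326 of 23410 probe sets (5.66%), and 8 of 65 lower, beside 2144 of 23410 (9.16%).

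Deletion of Srf without pilocarpine was examined by mutant against heterozygous controls; the heterozygous controls are the same mice that served the comparison with SE. No Gpr gene was called in either direction by limma, beside 0.0384% of all probe sets higher and 0.0812% lower. At an unadjusted p under 0.05, 1 of 65 Gpr genes was higher, beside 1014 of 23410 probe sets (4.33%). Lower at this limit were 6 of 65, beside 1029 of 23410 (4.4%). The largest difference was that of Gpr52, a Gs-coupled orphan known from striatum, at -0.47 (log2, standard error 0.121, adjusted p = 0.336 from limma). Gpr52 stood at 8.20, 7.84 and 8.04 in heterozygous controls and at 7.56, 7.35 and 7.75 in mutant controls. The groups did not overlap, and with pilocarpine the heterozygous mice (7.82, 7.53 and 7.53) and the mutants (7.58, 7.30 and 7.37) overlapped each other.

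Gpr3 was at 0.26 (log2, standard error 0.093, adjusted p = 0.478 from limma) in mutant against heterozygous controls, again without overlap, and Gpr75 at -0.13 (standard error 0.064, adjusted p = 0.599 from limma). Gpr6 was at -0.30 (standard error 0.152) and Gpr101 at -0.27 (standard error 0.159), and higher in the mutants were Gpr21, a class A orphan, at 0.17 (standard error 0.0997) and Gpr26 at 0.13 (standard error 0.078). None of these 4 was called. In all, 2 of 65 Gpr genes were higher without overlap, Gpr3 and Gpr83, beside 1429 of 23410 probe sets (6.1%). Lower without overlap were 9 of 65, beside 1747 of 23410 (7.46%). The count for both directions was the same 0 under every alternative.

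The difference between the responses of mutants and heterozygous mice contains the comparison that chose the group, and is given as a description. The mutants had no SE, so that genotype and SE cannot be told apart. The same limit was used here to sort and not as a test. Of 65 Gpr genes, 1 (1.54%) met it with a higher value, beside 1.47% of all probe sets. With a lower value 3 (4.62%) met it, beside 2.12%, and nothing is read from these shares. Gpr75 had a difference of 0.72 (log2, standard error 0.091), from -0.97 in heterozygous and -0.24 in mutant mice. The 3 lower genes were Gpr19 at -1.43 (standard error 0.149), Gpr3 at -1.09 (standard error 0.131) and Gpr180 at -0.44 (standard error 0.070). Gpr12 had a difference of 0.00 (standard error 0.146) and Gpr135 of -0.10 (standard error 0.072). Gpr182 at 0.60 (standard error 0.318) and Gpr101 at 0.47 (standard error 0.225) had the next highest values.

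The proteins through which receptors act were compared with the same fit, from lists that hold no Gpr gene. In heterozygous SE, 0 of 14 G protein alpha subunits were called higher and 1 lower, Gna13, a subunit of the G12 class, by 0.16 (log2, standard error 0.041, adjusted p = 0.0205 from limma). Of all probe sets, 5.08% were called higher and 6.93% lower in this comparison. At an unadjusted p under 0.05, 1 alpha subunit was higher and 2 were lower, beside 8.71% of all probe sets higher and 15.1% lower. Of 15 beta and gamma subunits, 13 adenylyl cyclases and phospholipase C beta enzymes, and 7 receptor kinases and arrestins, 0 were called in either direction by limma. At an unadjusted p under 0.05, 0 beta and gamma subunits were higher and 3 lower, 1 enzyme was higher and 1 lower, and 0 kinases or arrestins were higher and 1 lower, beside 8.71% of all probe sets higher and 15.1% lower. Their median differences were -0.03, 0.01 and -0.02 (log2), beside -0.03 over all probe sets. The alpha subunits had a median of -0.06 (log2), with 13 of 14 below 0. At the edges of these lists Gnai3 was at 0.23, Gng3 at -0.16, Plcb2 at -0.24, Adcy4 at 0.23 and Grk1 at -0.14 (log2), none of them called. In the mutants with pilocarpine 1 gene of these 4 lists was called, Grk6, a receptor kinase, which fell by 0.21 (log2, standard error 0.043, adjusted p = 0.0319 from limma). Among all probe sets, 0.871% were called higher and 0.965% lower in the mutants with pilocarpine. Grk6 was picked for its call.

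Among 63 measured receptors with known transmitter ligands, 4 were called higher and 11 lower in heterozygous SE. Of all probe sets 5.08% were called higher and 6.93% lower. The median difference was -0.09 (log2) over these receptors and -0.03 over all probe sets. Sstr3, a somatostatin receptor of neuronal cilia, fell by 0.81 (log2, standard error 0.059), Npy1r, a receptor of neuropeptide Y, fell by 0.80 (standard error 0.092), and Chrm4, a muscarinic receptor and so a target of pilocarpine, rose by 0.73 (standard error 0.064). In the mutants with pilocarpine 3 of the 63 were called higher and 1 lower, beside 0.871% of all probe sets called higher and 0.965% lower. The gene called lower was Npy1r, by 0.40 (log2, standard error 0.092, adjusted p = 0.0472 from limma), and those called higher were Htr5b, Sstr2 and Chrm5, which were picked for their calls. In heterozygous SE the differences of the Gpr genes ran from -0.97 to 1.85 and those of the transmitter receptors from -0.81 to 0.73. The lower end of the Gpr genes is Gpr75, the value that chose the group, so that nothing is read from the widths. The Gpr genes above 0.73 were Gpr19 and Gpr3.

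**Figure D4:**
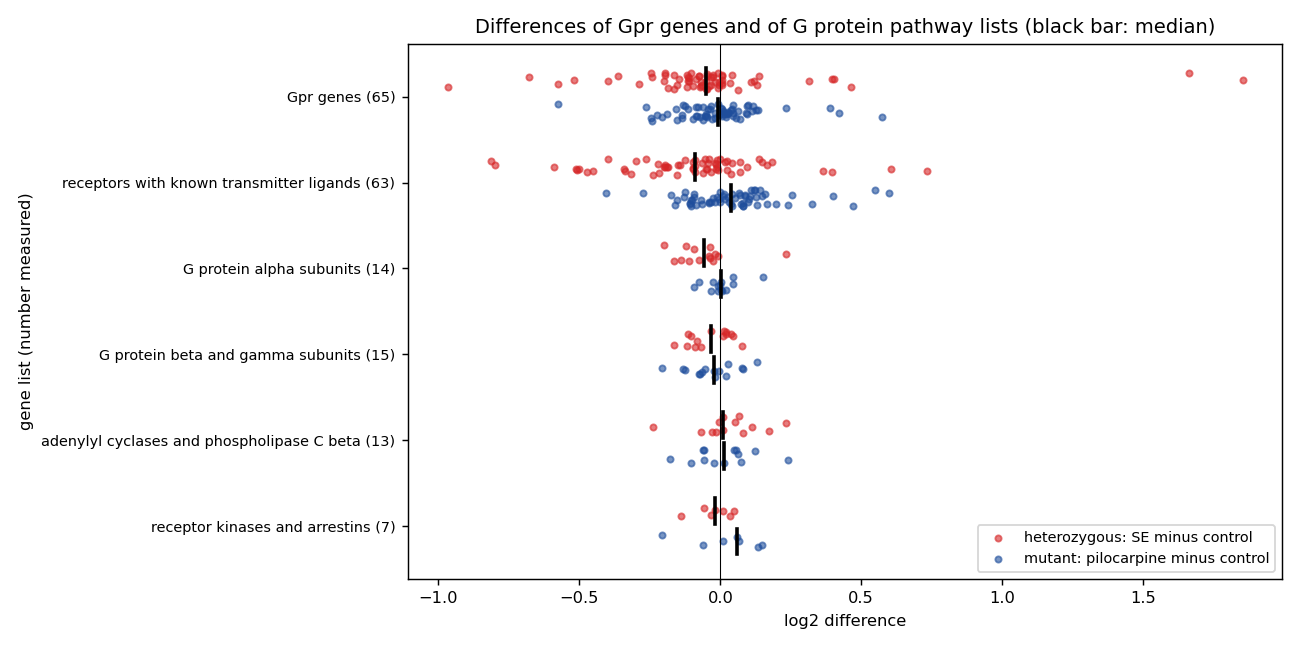
Log2 difference of the 65 Gpr genes and of the genes of 5 lists of the G protein pathway, in heterozygous SE against controls (red) and in mutants with pilocarpine against mutant controls (blue). Points are genes and black bars are medians; the medians in heterozygous SE lie between -0.09 and 0.01, and Gpr19 and Gpr3 are the 2 points beyond 1.5.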

How the data were processed

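Hippocampal RNA of 12 mice in 4 groups of 3 was hybridised to 1 array each. The authors summarised the scans with Affymetrix Expression Console by robust multiarray average (RMA) and deposited log2 values; software versions and a genome build are not given in the sources used here. RMA values are background-corrected and quantile-normalized, so that they show differences relative to the rest of each array.

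Of 35556 probe sets, 23410 had a gene in the platform annotation and were tested with limma 3.58.1 in R 4.3.3 (lmFit and eBayes, a mean per group, all 12 arrays sharing 1 estimate of the spread), with Benjamini-Hochberg adjustment over all 23410. Symbols were checked by Entrez identifier against the GRCm38.p6 gene table, where 65 of 65 were found and 0 had changed. The members, the lists of roles, pathways and cell markers and the rule for naming genes were chosen with earlier results of these data known. Genes were named if they were Gpr75, among the 10 brightest members, called, among the 3 highest or 3 lowest differences of a comparison, or among the largest differences of their list (up to 4 per role list, 3 per pathway list). A list of 18 adhesion receptors had 0 measured members. The fit was tested on simulated data. Alternatives changed the prior variance, the normalization, the weights, the arrays or probe sets in the fit and its covariates (Xist, animal number), or left out an array. The number of arrays limits the precision. The p-values rest on the spread between mice within groups, pooled over the 4 groups of 3 and moderated by eBayes.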

Additional observations from a re-analysis of the deposited data

Results flagged for a closer look

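Gpr180 was higher in heterozygous SE, while its difference in the mutants with pilocarpine had the opposite sign without overlap. That mutant difference was -0.05 (log2, interval -0.15 to 0.06) and was not called. Of all probe sets, 11.4% were lower without overlap in the mutants and 10.6% higher in heterozygous SE. All 3 heterozygous mice with SE lay above their controls and all 3 mutants with pilocarpine lay below theirs, and the mutant minus the heterozygous difference was -0.44 (log2). This difference was not tested, since it contains the arrays on which the group was selected. The mutants had no SE, so that genotype and SE cannot be told apart. Groups of 3 mice are too small to be examined for outlying mice.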

How the results depend on the processing

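No difference of a named Gpr gene that met the limit changed sign under any alternative. In heterozygous SE, where the limit only sorts the Gpr genes, 8 met it with lower values. This count became 13 with array weights and ran from 4 to 9 when 1 array was left out (5 without heterozygous control 1 or SE mouse 3, 4 without heterozygous control 3). The count with higher values, 6, ran from 4 to 6. These counts are no test, as the rule used this comparison. In the mutants with pilocarpine the count called higher, 1, became 2 with array weights, where Gpr19 passed (adjusted p = 0.04 from limma), and ran from 1 to 2 (2 without SE mouse 1). The count called lower, 2, became 0 when only the compared groups were fitted, and ran from 0 to 2 (0 without mutant control 2 or mutants 1 or 2 with pilocarpine, 1 without mutant 3). For the difference between responses, also no test, the count that met the limit with a higher value, 1, ran from 1 to 2 (2 without mutant control 2 or 3). The count with a lower value, 3, ran from 3 to 4. With the animal number as a replicate block the mutants gave 2 higher and 1 lower, with Gpr19 gained (adjusted p = 0.0475 from limma) and Gpr135 lost (adjusted p = 0.0523). Deviations of same-numbered mice had r of -0.312 to 0.323 over 18 pairs, within the -0.442 to 0.393 of 36 other pairs. No pairing by number was thus detected, and with 3 mice per group this check cannot exclude it. Gpr75 in the mutants was not called under any alternative (adjusted p of 0.0529 to 0.223 from limma). Over all probe sets, the split in heterozygous SE was 1190 higher to 1623 lower as deposited and 1422 to 1115 with arrays centred on their medians, where Gpr genes gave 6 and 6; in the mutants it was 204 to 226 as deposited, 233 to 164 centred and 233 to 182 with quantile normalization.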
